A study of Mus musculus with 2 samples.

Results

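The genes described here are Ncam1, Cdh1, Epcam, Cd24a, Ceacam10, Thy1, Cd44 and Cd47, 8 of the 28692 genes in the count tables. Most encode adhesion proteins of the cell surface, proteins that antibodies and engineered immune cells are directed against in tumours, or both. Ceacam10, of the carcinoembryonic antigen family, is known in the mouse as a secreted protein. The genes were picked by symbol, and the list was drawn up with their levels in each library and in Hhex-positive cells already known. Those levels are therefore given as a description, with no test. All 8 were found in both tables, and all 8 passed the minimum of 50 unique molecular identifiers (UMIs) over both libraries.

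Lung tumours of mixed-strain mice, a model of small cell lung cancer, supplied the cells. Both groups carried the same alleles: CGRPCreER/+, a drug-inducible Cre in the CGRP gene (Calca), which limits recombination to cells that use that gene; floxed tumour suppressors that include Rb (Rbf/f) and p53 (P53f/f); and Rosa26mTmG, a reporter by which recombined cells turn from Tomato to GFP. Live GFP-positive cells were sorted, a gate aimed at leaving out cells that never recombined. Some sorted barcodes still carried markers of immune or endothelial cells, as given below. The vehicle group received saline and the cisplatin group 5 mg per kg cisplatin, both every 4 days for 2 weeks, and each group gave 1 library on the 10x Genomics platform. The title of the treated sample says chemotherapy and the library protocol also names etoposide, so it is unclear whether etoposide was given. Neither the age of the mice nor their number stands in the sources used here, so a library may be 1 animal or a pool. Heterogeneity within tumours and sensitivity to chemotherapy are the subjects named in the title.

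After a filter on detected genes and mitochondrial UMIs, 3672 of 3726 vehicle barcodes and 4218 of 4254 cisplatin barcodes remained, with medians of 8205.5 and 5940.5 UMIs. All 11 neuroendocrine markers searched (Insm1, Chga and others) were detected in both libraries, in sum 6790 CPM (the UMIs of a gene over all UMIs of the same cells, on the usual scale of counts per 1000000) in vehicle and 9193 CPM in the cisplatin library. Fibroblast markers summed to 0.619 and 1.19 CPM, with Col1a1 at 0 in vehicle and Dpt and Pdgfra at 0 in cisplatin. The sums in vehicle and cisplatin were 111 and 28.1 CPM for 11 myeloid markers, 53.7 and 0.733 CPM for 5 erythroid, 20.3 and 16.0 CPM for 8 T and NK cell, 78.2 and 208 CPM for 5 alveolar type 2 and 845 and 2089 CPM for 6 club and ciliated markers. The part of these cells in the differences between the libraries was not tested. The libraries had 23 cell barcodes in common. With 1 library per group there is no replicate error. Every interval below is an exact 95% interval (Poisson for a level, Clopper-Pearson for a share, conditional for a ratio of levels) and covers counting error only.

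Cell adhesion molecules hold epithelial and neural cells together: cadherins bind the same cadherin on the next cell and anchor it to actin, while NCAM and its relatives bind through immunoglobulin-like domains. Small cell lung cancer cells commonly carry both kinds, an epithelial set with E-cadherin and EpCAM and a neural set with NCAM1 (CD56), the antigen pathologists stain for. CD24 and CD47 are known as signals that hold back macrophages, and CD44 is the hyaluronan receptor of many mesenchymal and stem-like cells.

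Levels were compared in 4 sets of cells, because the tumour cells of the cisplatin library included many with Hhex, a homeobox transcription factor known from somatostatin-producing delta cells of the pancreas. A cell with at least 1 Hhex UMI was called Hhex-positive. There were 52 such cells in vehicle (1.42% of cells; 1.06 to 1.85%) and 911 in cisplatin (21.6%; 20.4 to 22.9%). Hhex was scored together with 6 genes that accompany it in these libraries, Isl1, Sst, Pnoc, Hoxb8, Sfrp5 and Gfra4, here called the Hhex set of 7 genes. At least 3 of the set were detected in 17 vehicle cells and 843 cisplatin cells, and none in 3342 and 1863 cells. Hhex-positive cells were deeper than the others, with medians of 11346.5 against 8177 UMIs in vehicle and 7924 against 5526 in cisplatin, so shares of cells are given after each cell was thinned to 3000 UMIs. Shallower cells were left out of the shares: 146 in vehicle, all without Hhex, and 42 Hhex-positive and 319 other cells in cisplatin.

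Ceacam10 and Thy1 were the members with the largest differences, and in Hhex-positive cells of the cisplatin library Cdh1 was lower and Epcam higher than in the other cells. Cd47 (1.42-fold lower) and Cd24a (1.45-fold higher) differed there by less than the 1.5-fold limit used below. Between the libraries, 2 members were at least 1.5-fold higher in cisplatin (Ceacam10 and Thy1), against 6.54% of 13446 measured genes. Cdh1 alone was at least 1.5-fold lower, against 17.8% of measured genes. A difference was called on the log2 ratio of CPM after 1 CPM was added. The median log2 ratio of the 8 members was -0.01 and that of all measured genes -0.16. Since a median gene was below 0, other scalings moved the calls: TMM factors added 0.14 to each log2 ratio between the libraries and gave 9.18% higher and 11.7% lower genes, and median-of-ratios factors added 0.17 and gave 9.89% and 10.9%. The same 2 members were higher when cells with a Hhex UMI were left out, against 4.49% of 13129 genes, and no member was lower, against 16.6%.

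**Figure D1:**
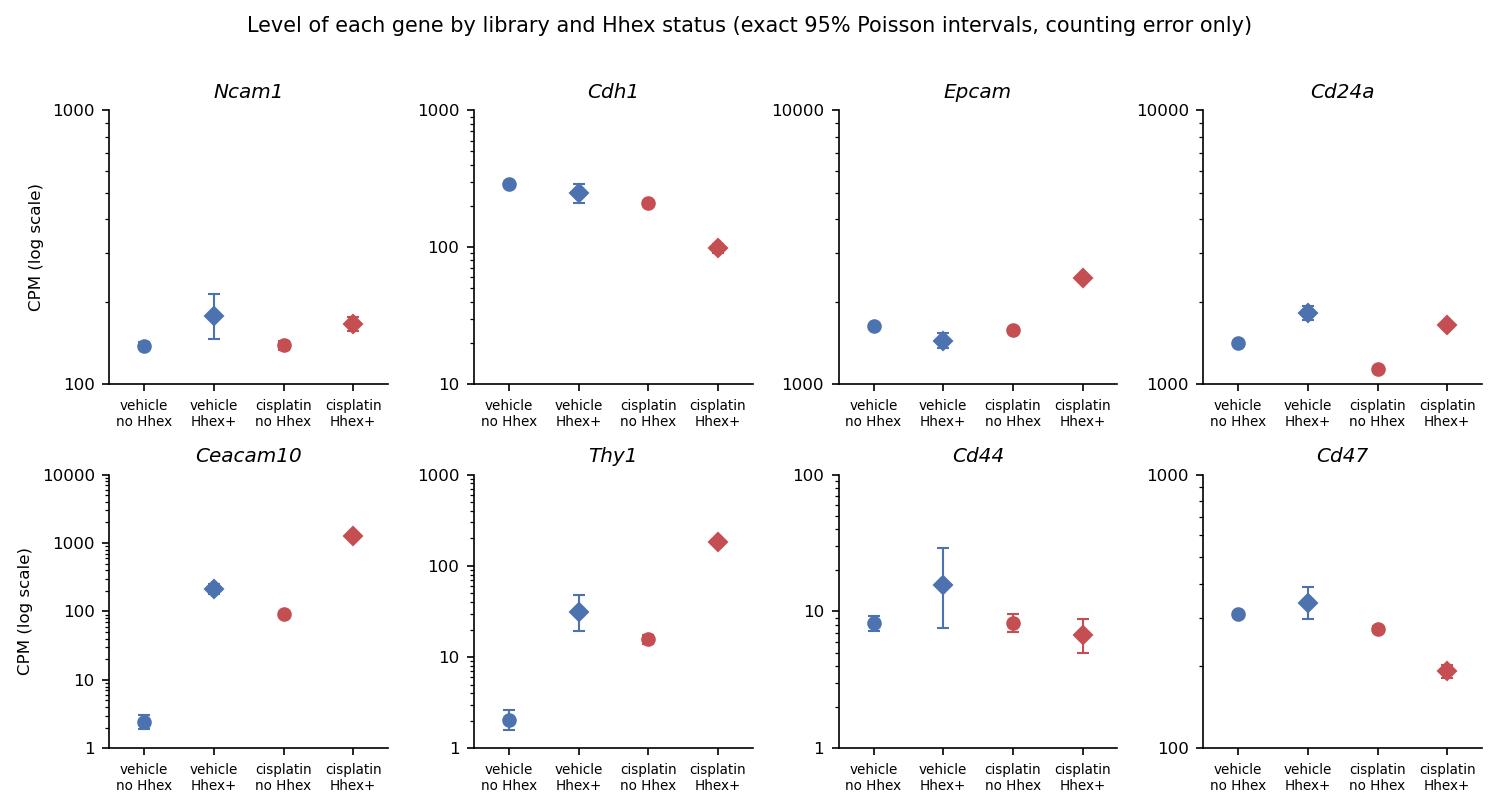
Level of each of the 8 genes in CPM on a log axis, for cells without a Hhex UMI (circles) and Hhex-positive cells (diamonds) of the vehicle (blue) and cisplatin (red) library. Bars are exact 95% Poisson intervals and cover counting error only. Ceacam10 runs from 2.46 to 1272 CPM and Thy1 from 2.05 to 180.5 CPM, while Ncam1 stays between 137.8 and 177.6 CPM.

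Within the cisplatin library, 3 members were at least 1.5-fold higher in Hhex-positive cells than in cells without a Hhex UMI (Ceacam10, Thy1 and Epcam), against 9.05% of 12219 genes. Cdh1 was at least 1.5-fold lower, against 12% of genes. These members were chosen with this contrast known, and nothing is read from the shares. Marker sums of some lung epithelial types, not all, differed in the same direction as the higher members. Of 6 club and ciliated cell markers, 5 were detected in cisplatin Hhex-positive cells. Their sum was 6389 CPM (Scgb1a1 alone 6193 CPM, Ccdc153 at 0), against 493 CPM in the other cells. The 5 alveolar type 2 markers summed to 590.4 CPM (Sftpc 504.1 CPM) against 65.6 CPM. The 5 alveolar type 1 markers went the other way, with 8.63 CPM in Hhex-positive cells (Pdpn at 0) against 10.2 CPM. In vehicle the club and ciliated sums were 864 and 845 CPM, and 6 endothelial markers summed to 97.4 CPM in Hhex-positive and 11.3 CPM in other cells, all 6 detected and 1 of the Hhex-positive barcodes marked as endothelial. The part of these cell types in the results below was not tested.

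Ceacam10 (ENSMUSG00000054169; GRCm38 chromosome 7, 24777206 to 24784657, plus strand) belongs to the carcinoembryonic antigen family of immunoglobulin-like proteins and is known in the mouse as a secreted member. The family members resemble each other in sequence, and the sources used here do not give how reads that match several of them were counted. The promoter is shown because this gene had the largest difference between the sets of cells, beside Epcam, which is high in nearly every cell, and Cd44, which is low in nearly every cell. RefSeq promoters on GRCm38.p6 were matched for 4 of the 8 members, Ceacam10, Epcam, Cd44 and Cd47. Each window holds the 250 bases before a RefSeq transcript start (for Ceacam10 1 of 2 starts, upstream of the GENCODE start given above): chr7:24776917-24777166 on the plus strand for Ceacam10, chr17:87635729-87635978 on the plus strand for Epcam and chr2:102901666-102901915 on the minus strand for Cd44. Capitals mark matches to the motifs searched, on either strand.
Ceacam10: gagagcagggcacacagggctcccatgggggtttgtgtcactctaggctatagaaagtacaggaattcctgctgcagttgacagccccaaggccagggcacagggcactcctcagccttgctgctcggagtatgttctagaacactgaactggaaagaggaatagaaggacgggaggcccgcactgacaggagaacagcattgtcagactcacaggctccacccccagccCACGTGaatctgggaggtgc
Epcam: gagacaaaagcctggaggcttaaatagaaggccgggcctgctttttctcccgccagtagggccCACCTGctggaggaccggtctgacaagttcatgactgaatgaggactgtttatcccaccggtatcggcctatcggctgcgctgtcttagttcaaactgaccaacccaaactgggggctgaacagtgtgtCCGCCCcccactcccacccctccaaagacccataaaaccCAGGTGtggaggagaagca
Cd44: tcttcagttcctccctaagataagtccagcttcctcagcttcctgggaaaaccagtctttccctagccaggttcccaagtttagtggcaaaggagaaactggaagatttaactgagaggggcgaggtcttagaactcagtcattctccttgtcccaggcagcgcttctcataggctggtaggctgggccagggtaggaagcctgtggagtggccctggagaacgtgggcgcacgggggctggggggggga

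The motifs searched on both strands were the E-box CAGCTG, the E-box CAGGTG and the E-box CACGTG (which share the core CANNTG and did not overlap each other in these windows), the homeodomain core TAATTA, the TATA box TATAAA, the TEAD core GGAATG, the cAMP response element TGACGTCA and the GC box GGGCGG. The E-box CACGTG was added after the Ceacam10 sequence had been seen. The Ceacam10 window held CACGTG, found in 6.02% of 32851 promoter windows of the same length, and none of the other 7 motifs. The Epcam window held CAGGTG, found in 17.2% of windows, at base 64 and base 232, and the GC box, found in 32.7%, at base 193. The Cd44 window held none of the 8 motifs. CAGCTG was found in 13% of windows, TAATTA in 4.84%, TATAAA in 12.4%, GGAATG in 12.6% and TGACGTCA in 1.55%. A match is a description of the letters only.

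Ceacam10 was at 6.66 CPM in the vehicle library (215 UMIs; 5.80 to 7.61) and 411 CPM in the cisplatin library (11789 UMIs; 404 to 419), 61.8-fold higher (54.0 to 71.0), and 1 of 13446 genes had a larger log2 ratio. In cells without a Hhex UMI the levels were 2.46 CPM in the vehicle library and 91.7 CPM in the cisplatin library, and in Hhex-positive cells 215.3 CPM and 1272 CPM. The level was thus lowest in vehicle cells without Hhex and highest in cisplatin Hhex-positive cells, and no neighbouring intervals in that order overlapped. After thinning, a Ceacam10 UMI was found in 0.864% of vehicle cells without Hhex (0.583 to 1.23%), 14.2% of cisplatin cells without Hhex (13.0 to 15.5%), 21.2% of vehicle Hhex-positive cells (11.1 to 34.7%) and 71.3% of cisplatin Hhex-positive cells (68.2 to 74.3%). The share in vehicle Hhex-positive cells overlapped with that in cisplatin cells without Hhex. Without thinning these shares were 1.99%, 26.2%, 25% and 80.7%.

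The vehicle UMIs of Ceacam10 sat in few cells. One cell with all 7 genes of the Hhex set held 54 of the 215 UMIs, and without its barcode the vehicle level was 4.99 CPM and the cisplatin level 82.5-fold higher. The 35 vehicle cells with exactly 1 Hhex UMI had no Ceacam10 UMI (upper limit 8.63 CPM), whereas the 17 with 2 or more were at 656.5 CPM (551 to 776). Of the 137 UMIs in these 17 cells, 54 were in that 1 cell. The levels of the 17 and of all vehicle Hhex-positive cells include it and were not taken without it. Those 17 cells are also the 17 with at least 3 genes of the Hhex set, each with 5 or more. In cisplatin the level was 91.7, 643.1 and 1577 CPM in cells with 0, 1 and 2 or more Hhex UMIs.

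Outside the Hhex set, Ceacam10 in cisplatin was a low count in many cells. Among the 1863 cisplatin cells with none of the 7 genes, 399 (21.4%) had a Ceacam10 UMI, no cell had more than 4, and the level was 44.8 CPM (40.8 to 49.1). The same class in vehicle was at 2.47 CPM (1.93 to 3.12), so cisplatin was 18.1-fold higher (14.1 to 23.6) there. The 22 vehicle barcodes marked as another cell type (at least 3 markers of an immune, endothelial or fibroblast cell) had 0 Ceacam10 UMIs, which allows up to 20.6 CPM. The 5 such cisplatin barcodes had 25, though 2 of these 5 carried Hhex. Free RNA of the Hhex-positive cells as a source of the low counts was not tested.

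Thy1 (ENSMUSG00000032011; chromosome 9, 44043384 to 44048579, plus strand) encodes a small protein held on the membrane by a glycosylphosphatidylinositol anchor, known from neurons, T cells and fibroblasts. It was at 2.63 CPM in the vehicle library (85 UMIs; 2.10 to 3.25) and 60.3 CPM in the cisplatin library (1729 UMIs; 57.5 to 63.2), 22.9-fold higher (18.4 to 28.9). One vehicle barcode with 6 T and NK cell markers, none of the Hhex set and 30980 UMIs held 37 of the 85 vehicle UMIs; without it vehicle was at 1.49 CPM and cisplatin 40.6-fold higher. In cells without a Hhex UMI, Thy1 was at 2.05 CPM in the vehicle library (0.885 CPM without that barcode) and 15.7 CPM in the cisplatin library, 7.64-fold higher (17.7-fold without it; 12.0 to 27.1), and in Hhex-positive cells at 31.4 CPM (20 UMIs; 19.2 to 48.5) and 180.5 CPM (171 to 190). The order of the 4 sets was that of Ceacam10, except that cisplatin cells without Hhex and vehicle Hhex-positive cells lay closer together.

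After thinning, a Thy1 UMI was found in 0.288% of vehicle and 3.58% of cisplatin cells without Hhex, and in 5.77% of vehicle (1.21 to 15.9%) and 33.9% of cisplatin Hhex-positive cells (30.8 to 37.2%). The unthinned shares were 0.746%, 7.02%, 17.3% and 51.4%. All 20 Thy1 UMIs of the vehicle Hhex-positive cells came from the 17 cells with 2 or more Hhex UMIs, which were at 95.9 CPM (58.5 to 148). In cisplatin cells with none of the Hhex set Thy1 was at 10.6 CPM, in 104 of 1863 cells and at most 2 UMIs per cell. T cells express Thy1 themselves: the 22 marked vehicle barcodes were at 240 CPM (174 to 323), and at 40.5 CPM (6 UMIs; 14.9 to 88.0) without the barcode with 37 UMIs.

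**Figure D2:**
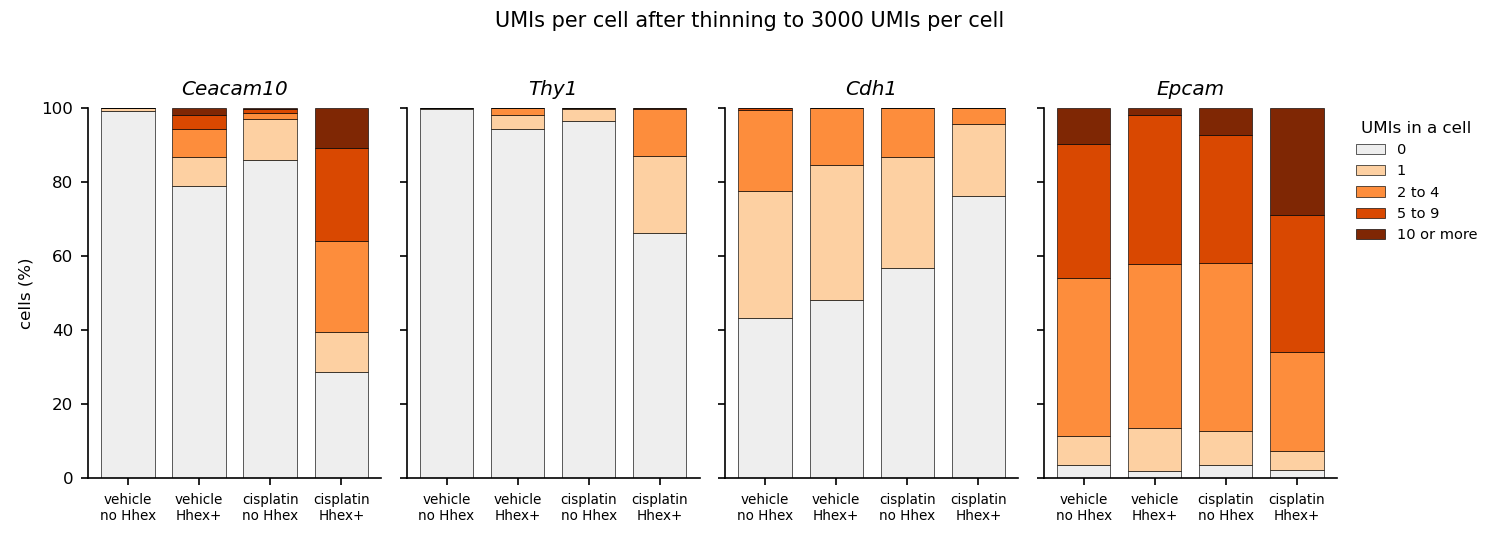
Percent of cells by the number of UMIs of Ceacam10, Thy1, Cdh1 and Epcam after thinning to 3000 UMIs per cell, in the 4 sets of cells. In cisplatin Hhex-positive cells 28.6% had no Ceacam10 UMI and 10.8% had 10 or more, while 76.2% had no Cdh1 UMI.

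Detection of Thy1 was compared between cells with and without Ceacam10. Among cisplatin Hhex-positive cells after thinning, Thy1 was detected in 43.4% of the 620 cells with a Ceacam10 UMI (39.4 to 47.4%) and in 10.4% of the 249 without (6.93 to 14.9%). Among cisplatin cells without Hhex the shares were 9.18% of 425 cells and 2.65% of 2563 cells. Across the 4218 cisplatin cells, the 3 genes most like Thy1 by Pearson correlation of log counts per 10000 were Ceacam10 (0.60), Pcsk2 (0.59), which encodes a prohormone convertase, and Scg2 (0.58), which encodes a secretogranin. For Ceacam10 they were Pcsk2 (0.80), Scg2 (0.78) and Gfra4 (0.75), and among the 3307 cells without Hhex Pcsk2 (0.48), Pnoc (0.43) and Sfrp5 (0.41). These cells share 1 library, and their depth enters each value. In vehicle no gene found in enough cells to be searched reached 0.3 with either. Thy1 and Ceacam10 themselves were found in too few vehicle cells to be searched. Their correlation with each other was 0.30 over all 3672 vehicle cells and 0.02 over the 3620 without a Hhex UMI.

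Cdh1 (ENSMUSG00000000303; chromosome 8, 106603351 to 106670246, plus strand) encodes E-cadherin, the adhesion protein of epithelial adherens junctions. It was at 287 CPM in the vehicle library (9284 UMIs; 282 to 293) and 180 CPM in the cisplatin library (5151 UMIs; 175 to 185), 1.60-fold lower (1.55 to 1.65). With TMM or median-of-ratios factors the log2 ratio was -0.54 or -0.51 in place of -0.67, short of the 1.5-fold limit. The levels in cells without Hhex were 288 and 210 CPM, 1.37-fold lower in cisplatin (1.32 to 1.42). In Hhex-positive cells they were 248 CPM (211 to 290) and 97.9 CPM (91.1 to 105). In the cisplatin library Hhex-positive cells were 2.15-fold lower than the others (1.99 to 2.32), whereas in vehicle the intervals of Hhex-positive and other cells overlapped.

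The vehicle Hhex-positive cells were a mixture for Cdh1. The 35 cells with exactly 1 Hhex UMI were at 295 CPM (245 to 351), close to cells without Hhex, and the 17 with 2 or more were at 153 CPM (32 UMIs; 105 to 217), 1.88-fold lower than vehicle cells with none of the Hhex set (1.33 to 2.76). In cisplatin, cells with 0, 1 and 2 or more Hhex UMIs were at 210, 167 and 64.3 CPM. Both libraries thus had Cdh1 lower in the cells with most Hhex. After thinning, a Cdh1 UMI was found in 56.7% of vehicle cells without Hhex (55.0 to 58.4%), 51.9% of vehicle Hhex-positive cells (37.6 to 66.0%), 43.4% of cisplatin cells without Hhex (41.6 to 45.2%) and 23.8% of cisplatin Hhex-positive cells (21 to 26.8%). Unthinned, the shares were 85.4%, 86.5%, 64.1% and 46.4%.

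The same split was made for Cdh1. Among cisplatin Hhex-positive cells after thinning, Cdh1 was detected in 15.7% of cells with a Ceacam10 UMI (12.9 to 18.8%) and 44.2% of cells without (37.9 to 50.6%). Among cisplatin cells without Hhex the shares were 38.1% (33.5 to 42.9%) and 44.3% (42.3 to 46.2%). In Hhex-positive cells the intervals with and without Ceacam10 lay apart in opposite directions for Thy1 and Cdh1, and in cells without Hhex those for Cdh1 overlapped. In marked vehicle barcodes Cdh1 was at 178.5 CPM (122 to 252), with a UMI in 36.8% (16.3 to 61.6%) after thinning.

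Epcam (ENSMUSG00000045394; chromosome 17, 87635979 to 87651129, plus strand) encodes the epithelial cell adhesion molecule, an antigen of several antibody drugs. It was at 1622 CPM in the vehicle library (52400 UMIs; 1608 to 1636) and 1813 CPM in the cisplatin library (51973 UMIs; 1798 to 1829). In cells without Hhex the levels were 1626 and 1578 CPM. In Hhex-positive cells they were 1440 CPM in the vehicle library (1348 to 1536) and 2446 CPM in the cisplatin library (2412 to 2481). Hhex-positive cells were therefore 1.55-fold higher than the others in cisplatin (1.52 to 1.58) and 1.13-fold lower in vehicle (1.06 to 1.21). The 17 vehicle cells with at least 3 genes of the Hhex set, at 1337 CPM, were lower than the 3342 cells with none, at 1628 CPM, while in cisplatin the same classes were at 2564 and 1459 CPM.

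Nearly every cell carried Epcam: after thinning, 96.3% of cells without Hhex in each library, and 98.1% of vehicle and 97.7% of cisplatin Hhex-positive cells. Unthinned, the 4 shares lay between 98.4% and 100%. The sort was on GFP, not on Epcam. Among the 22 vehicle barcodes marked as other cell types, 12 had an Epcam UMI, the level was 507.5 CPM (409 to 623), and after thinning 42.1% (20.3 to 66.5%) had a UMI.

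Epcam also went with the cell cycle. Cells with at least 2 UMIs over 10 mitotic genes were at 1773 CPM and other cells at 1313 CPM in the vehicle library, 1.35-fold higher (1.32 to 1.38). In cisplatin cells without Hhex the levels were 1793 and 1254 CPM, 1.43-fold higher (1.40 to 1.46). The genes most like Epcam in vehicle were the mitotic genes Cenpf (0.41), Ccnb2 (0.39) and Cenpa (0.38), and in cisplatin cells without Hhex Calm2 (0.39), Cks2 (0.35) and Prc1 (0.34). Over all cisplatin cells they were Spint2 (0.37), Calm2 (0.37) and Pcsk2 (0.34). The measure follows depth: mitotic vehicle cells had a median of 9620.5 UMIs and the others 6870.5. By it 60.8% of Hhex-positive and 49.5% of other cisplatin cells were mitotic, and 39.6% (36.3 to 42.9%) and 39.3% (37.5 to 41.0%) after thinning. In vehicle the shares were 76.9% and 57.0%, and 42.3% (28.7 to 56.8%) and 35.7% (34.1 to 37.3%) after thinning. The intervals of the thinned shares overlapped in each library. Among cisplatin cells with no UMI of the 10 mitotic genes, the log2 ratio of Hhex-positive over other cells was 1.05, against 0.63 in all.

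**Figure D3:**
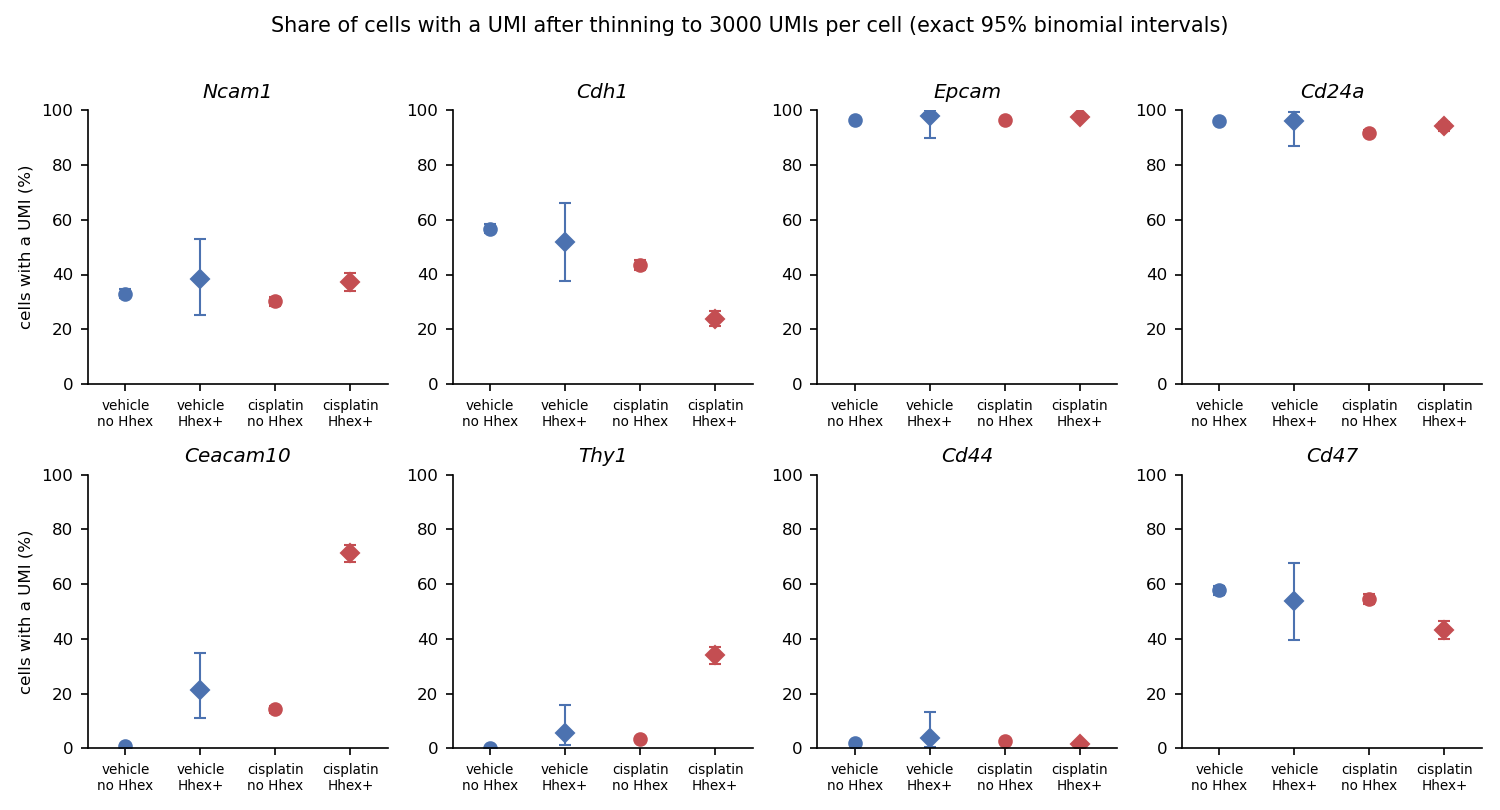
Percent of cells with at least 1 UMI of each gene after thinning to 3000 UMIs per cell, with exact 95% binomial intervals. Epcam and Cd24a are found in more than 90% of cells of each set, Cd44 in under 5%, and Ceacam10 goes from 0.864% of vehicle cells without Hhex to 71.3% of cisplatin Hhex-positive cells.

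Ncam1 (ENSMUSG00000039542; chromosome 9, 49502136 to 49798925, minus strand) encodes the neural cell adhesion molecule. It was at 138.6 CPM in the vehicle library (4477 UMIs; 135 to 143) and 145.9 CPM in the cisplatin library (4183 UMIs; 142 to 150). In cells without Hhex the levels were 137.8 and 138.6 CPM, with a ratio of 1.01 (0.959 to 1.05), and in Hhex-positive cells 177.6 CPM (146 to 214) and 165.7 CPM (157 to 175). Its log2 ratio over all cells was 0.07, and 0.21 with TMM and 0.24 with median-of-ratios factors. Ncam1 was 1.20-fold higher in Hhex-positive cells of the cisplatin library (1.12 to 1.28) and 1.29-fold higher in those of vehicle (1.06 to 1.55). The 17 vehicle cells with 2 or more Hhex UMIs were at 244 CPM (51 UMIs; 182 to 321). One of these cells, with all 7 genes of the Hhex set, held 12 of the 51 UMIs. All vehicle Hhex-positive cells together had 113. The vehicle ratio was not taken without that cell.

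After thinning, a Ncam1 UMI was found in 32.9% of vehicle and 30.2% of cisplatin cells without Hhex, and in 38.5% and 37.2% of Hhex-positive cells. The intervals of Hhex-positive and other cells overlapped in vehicle and not in cisplatin. Unthinned, the shares were 61.8%, 50.1%, 82.7% and 63.3%. Of the 22 vehicle barcodes marked as another cell type, 6 of the 19 deep enough (31.6%; 12.6 to 56.6%) had a Ncam1 UMI. That interval spans the shares in vehicle and cisplatin cells with and without Hhex. The level in the marked vehicle barcodes was 89.2 CPM (51.0 to 145). NK cells, which express NCAM1 in humans, and barcodes that also hold a tumour cell were not separated among them.

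Cd24a (ENSMUSG00000047139; chromosome 10, 43578284 to 43584265, plus strand) encodes CD24, a short, heavily glycosylated and lipid-anchored protein. It was at 1417 CPM in the vehicle library (45770 UMIs; 1404 to 1430) and 1271 CPM in the cisplatin library (36421 UMIs; 1258 to 1284), 1.12-fold lower, and the log2 ratio of -0.16 became 0.01 with median-of-ratios factors. In cells without Hhex the levels were 1409 and 1133 CPM. In Hhex-positive cells they were 1820 CPM (1717 to 1928) and 1642 CPM (1613 to 1671), 1.45-fold above the other cells in cisplatin (1.42 to 1.48) and 1.29-fold in vehicle (1.22 to 1.37). In vehicle the difference lay in the 17 cells with 2 or more Hhex UMIs, at 2899 CPM (605 UMIs; 2673 to 3140), whereas the 35 cells with exactly 1 were at 1293 CPM (1188 to 1406). A Cd24a UMI was found after thinning in 91.8% to 96.2% of cells of the 4 sets. Marked vehicle barcodes were at 753 CPM (631 to 891).

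Cd47 (ENSMUSG00000055447; chromosome 16, 49800533 to 49915010, plus strand) encodes the membrane protein that binds SIRPA on macrophages and thrombospondin in the matrix. It was at 310 CPM in the vehicle library (10022 UMIs; 304 to 316) and 250.1 CPM in the cisplatin library (7168 UMIs; 244 to 256), 1.24-fold lower (1.20 to 1.28). In cells without Hhex the levels were 309.6 and 272 CPM, and in Hhex-positive cells 341 CPM (297 to 390) and 191 CPM (181 to 201). Cisplatin Hhex-positive cells were 1.42-fold lower than the other cells of their library (1.35 to 1.51). In vehicle the intervals of Hhex-positive and other cells overlapped. The 35 vehicle cells with exactly 1 Hhex UMI were at 399.9 CPM (342 to 464), above cells without Hhex, and the 17 with 2 or more Hhex UMIs were at 220.4 CPM (46 UMIs; 161 to 294), below them. After thinning, a Cd47 UMI was found in 57.7% of vehicle and 54.7% of cisplatin cells without Hhex, and in 53.8% and 43.3% of Hhex-positive cells. The unthinned shares were 85.0%, 75.1%, 88.5% and 71.8%. Marked vehicle barcodes, many of them leukocytes that carry CD47 themselves, were at 335 CPM (255 to 431).

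Cells with an interferon response, those with at least 3 of 10 interferon-induced genes, had somewhat more Cd47: 345 against 305 CPM in the vehicle library (1.13-fold; 1.07 to 1.20) and 327 against 264 CPM in cisplatin cells without Hhex (1.24-fold; 1.15 to 1.33). Mitotic cells had less, 299 against 333 CPM in vehicle.

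Cd44 (ENSMUSG00000005087; chromosome 2, 102811141 to 102901665, minus strand) encodes the hyaluronan receptor, which also binds osteopontin. It was found in few cells, at 8.36 CPM in the vehicle library (270 UMIs; 7.39 to 9.42) and 7.81 CPM in the cisplatin library (224 UMIs; 6.82 to 8.91). The levels in cells without Hhex were 8.21 and 8.23 CPM, with a ratio of 1.00 (0.822 to 1.22). Hhex-positive cells were at 15.7 CPM in the vehicle library (10 UMIs; 7.54 to 28.9) and 6.70 CPM in the cisplatin library (52 UMIs; 5.00 to 8.79). After thinning, 1.78% of vehicle and 2.81% of cisplatin cells without Hhex and 3.85% (0.469 to 13.2%) and 1.73% (0.969 to 2.83%) of Hhex-positive cells had a UMI. Unthinned, the shares were 5.39%, 4.63%, 13.5% and 5.05%. Marked vehicle barcodes, some of them leukocytes that carry CD44 themselves, were at 89.2 CPM (51.0 to 145), with a UMI in 15.8% (3.38 to 39.6%) after thinning, and the vehicle barcode with most Cd44, 8 UMIs, carried 8 myeloid markers and no Epcam UMI. Interferon-responding vehicle cells were at 16.6 CPM against 7.02 CPM in the others (2.37-fold; 1.79 to 3.10), a count that includes marked barcodes, with medians of 10572 and 7981 UMIs per cell.

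**Figure D4:**
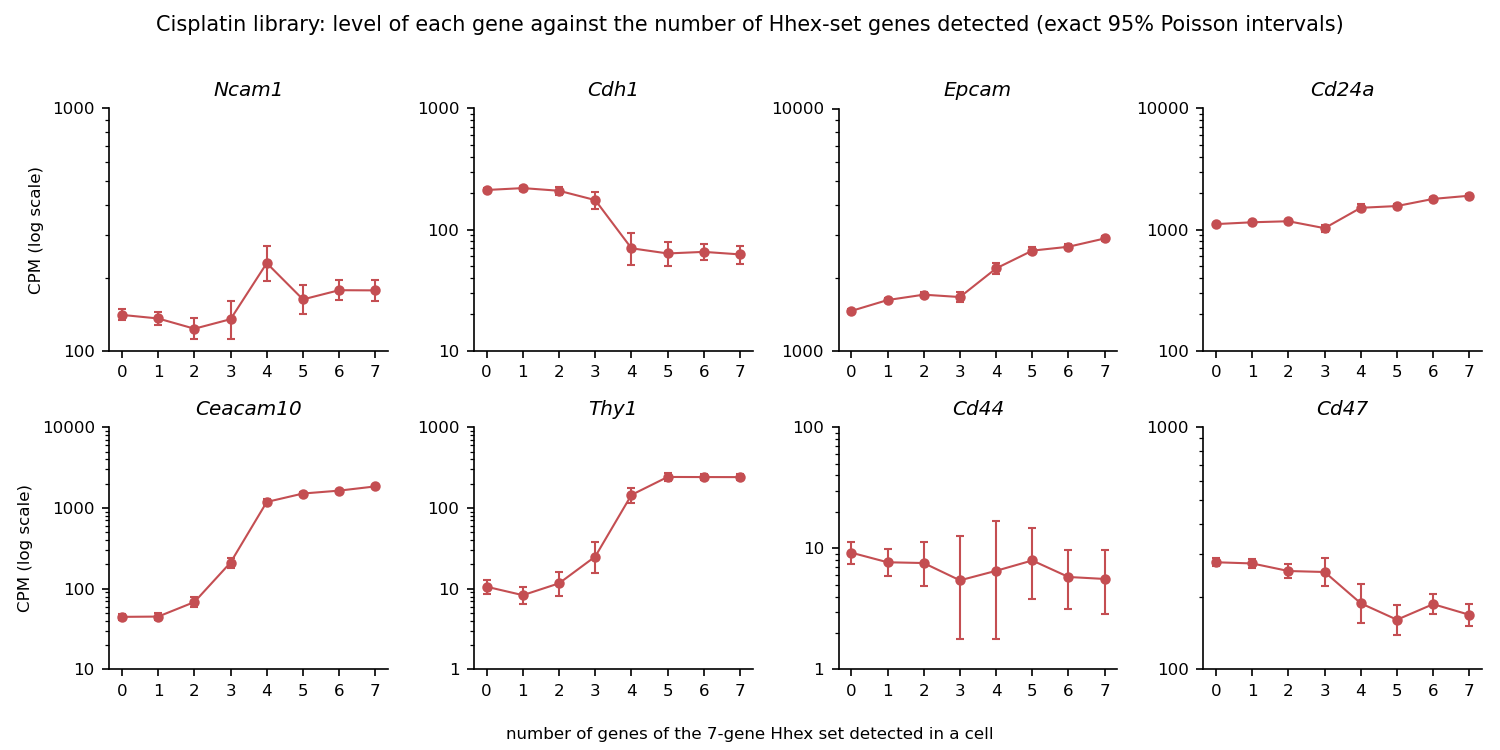
Level of each gene in CPM on a log axis in cisplatin cells grouped by how many of the 7 Hhex-set genes were detected, with exact 95% Poisson intervals. The groups hold 1863, 1134, 378, 103, 92, 160, 279 and 209 cells from left to right. Ceacam10, Thy1, Epcam and Cd24a are higher and Cdh1 and Cd47 lower from 4 detected genes on.

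Several members differed over the same part of the Hhex set. In cisplatin cells with 0, 1 or 2 of the 7 genes, Ceacam10 was at 44.8, 45.1 and 68.4 CPM. With 3 genes it was at 211 CPM and with 4 at 1187 CPM, and with 7 it reached 1850 CPM. Thy1 was at 25 CPM with 3 genes, 145 CPM with 4 and 242 CPM with 5, and stayed there. Cdh1 was at 175 CPM with 3 genes and 70.1 CPM with 4, and Cd47 at 252.5 and 187.5 CPM. Epcam went from 1459 CPM with none to 1665 CPM with 3, 2186 CPM with 4 and 2906 CPM with all 7. Cd24a was at 1110 CPM with none, 1027 CPM with 3, 1513 CPM with 4 and 1904 CPM with all 7. Deeper cells detect more genes of the set, with medians of 8084 UMIs at 3 genes, 5704.5 at 4 and 9909 at 7. The median depth was lower at 4 genes than at 3 and higher again at 7. The part of depth in these levels was not tested.

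Sums over the library therefore come from different cells for different members. Hhex-positive cells held 27.1% of all cisplatin UMIs, but 83.8% of those of Ceacam10 and 81.0% of those of Thy1. They held 36.5% of Epcam, 35.0% of Cd24a and 30.7% of Ncam1. For Cd44, Cd47 and Cdh1 the shares were 23.2%, 20.7% and 14.7%, below that of all UMIs. In vehicle, where Hhex-positive cells held 1.97% of UMIs, they held 63.7% of Ceacam10 and 23.5% of Thy1 but only 1.70% of Cdh1 and 1.75% of Epcam.

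**Figure D5:**
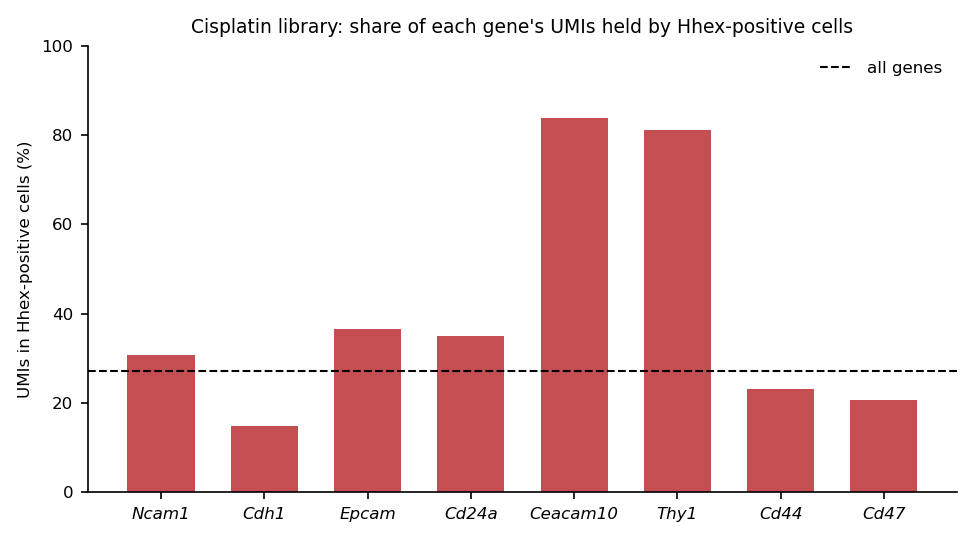
Percent of each gene's UMIs in the cisplatin library that lie in Hhex-positive cells. The dashed line marks 27.1%, the share of all UMIs in those cells; Ceacam10 and Thy1 stand at 83.8% and 81.0%, and Cdh1 is the lowest at 14.7%.

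Other genes of these pathways were taken from 6 lists, which were also written with earlier results of these data known. In the list of neural and immunoglobulin adhesion genes, 22 of 23 were measured, of which 2 were at least 1.5-fold higher in cisplatin (6.54% over all genes) and 10 lower (17.8%), with a median log2 ratio of -0.52 against -0.16 over all genes. With TMM factors 3 were higher (9.18% over all genes) and 8 lower (11.7%). Nrcam, a neural cell adhesion molecule of the L1 family, was at 72.4 CPM in the vehicle library and 28.1 CPM in the cisplatin library, Ncam2 at 7.30 and 2.86 CPM and Opcml at 3.53 and 1.01 CPM, whereas Lsamp was at 1.42 and 4.54 CPM. Nrcam was at 34.2 CPM in cisplatin cells without Hhex and 11.7 CPM in Hhex-positive ones. Ncam1, which is not in this list, was at a ratio of 1.05 (1.01 to 1.10).

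Of 23 epithelial junction genes 21 were measured, 0 higher (6.54% over all genes) and 5 lower (17.8%) in cisplatin, with a median of -0.23. With TMM factors 1 was higher (9.18% over all genes) and 1 lower (11.7%). Mllt4, which encodes afadin, the link between nectins and actin, was at 122 CPM in the vehicle library and 59.3 CPM in the cisplatin library, Pvrl2, a nectin, at 62.2 and 37.4 CPM, and Dsp, which encodes desmoplakin, at 87.8 and 53.8 CPM. Between Hhex-positive and other cisplatin cells 0 of 21 were higher (9.05% over all genes) and 6 lower (12%). The median was -0.44 against -0.07 over all genes. This was not particular to junction genes. The partners of Cd47 and Ncam1 had a median of 0.08 in this contrast. Medians were -0.39 for neural adhesion, -0.47 for integrin, -0.47 for lipid-anchored and -0.52 for target antigen genes. With a minimum of 200 UMIs per gene these were 0.05, -0.47, -0.66 and -0.07. Dsp was at 26.0 CPM in Hhex-positive and 64.2 CPM in other cells, and Mllt4 at 35.8 and 68.0 CPM, the same direction as Cdh1 and the opposite of Epcam.

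In the list of integrins, tetraspanins and CD44 partners, 20 of 23 were measured, with 3 higher (6.54% over all genes) and 5 lower (17.8%) and a median of 0.03. With TMM factors 3 were higher (9.18% over all genes) and 3 lower (11.7%). Spp1, which encodes osteopontin, a CD44 ligand, was at 2.82 CPM in the vehicle library and 10.4 CPM in the cisplatin library. The tetraspanin Cd81 was at 241 and 484 CPM, and Itga6, a laminin-binding integrin chain, at 43.7 and 19.9 CPM. The proteoglycan Sdc1 was at 55.2 and 30.0 CPM. Itga6 was at 6.83 CPM in cisplatin Hhex-positive cells and 24.7 CPM in the others.

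Of 19 lipid-anchored, Ly6 and Ceacam genes beside the members, 10 were measured. Of these, 0 were higher (6.54% over all genes) and 5 lower (17.8%), with a median of -0.25. With TMM factors 3 were higher (9.18% over all genes) and 4 lower (11.7%). Ceacam1 was at 10.2 CPM in the vehicle library and 4.08 CPM in the cisplatin library, the direction opposite to that of Ceacam10. Gpc1, a glypican, was at 87.7 and 48.8 CPM. The Ly6 genes Ly6a and Ly6c1, at 5.20 and 3.09 CPM in the vehicle library and 1.95 and 1.26 CPM in the cisplatin library, rest on few UMIs.

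Of 21 further antigens considered as targets, 15 were measured, 1 higher (6.54% over all genes) and 8 lower (17.8%), with a median of -0.60. With TMM factors 5 were lower and with median-of-ratios factors 4, against 11.7% and 10.9% over all genes. Dll3, the Notch ligand that T cell engagers are directed against in small cell lung cancer, was at 65.3 CPM in the vehicle library (62.6 to 68.2) and 66.2 CPM in the cisplatin library (63.2 to 69.2), and at 81.2 CPM in cisplatin Hhex-positive against 60.6 CPM in other cells. Sez6, a neuronal surface protein, was at 31.3 and 14.1 CPM, Tfrc, the transferrin receptor, at 29.9 and 15.2 CPM, Prom1 at 8.82 and 3.63 CPM, and St8sia1, the enzyme that makes the ganglioside GD3, at 6.84 and 2.02 CPM. Dll3 thus stood with Epcam and Ncam1 among antigens whose levels in the 2 libraries were within 1.5-fold of each other.

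Of 16 partners of Cd47 and Ncam1, 13 were measured, 2 higher (6.54% over all genes) and 3 lower (17.8%), with a median of -0.25. With TMM factors 2 were higher (9.18% over all genes) and 2 lower (11.7%). Sirpa, the receptor of CD47, was at 7.21 CPM in the vehicle library and 5.58 CPM in the cisplatin library. Qpctl, the enzyme that modifies CD47 for SIRPA binding, was at 21.2 and 21.3 CPM. Among NCAM partners, Gfra1, a co-receptor for GDNF, was at 11.1 CPM in the vehicle library and 2.44 CPM in the cisplatin library, and St8sia2, a polysialic acid synthase of NCAM, at 3.65 and 1.19 CPM. Gap43, a growth cone protein, was at 4.46 and 9.24 CPM and Fgfr1 at 0.836 and 2.23 CPM. These 2 were the higher ones over all cells. Outside Hhex-positive cells Gap43 was at 4.26 CPM in the vehicle library and 1.82 CPM in the cisplatin library, the opposite direction, and Fgfr1 at 0.695 and 0.861 CPM. In cisplatin Hhex-positive cells Gap43 was at 29.2 CPM and Fgfr1 at 5.93 CPM.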

How the data were processed

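The authors deposited, for each of the 2 libraries, a matrix of unnormalised UMI counts by gene and cell barcode, per the file headers; the submitters' processing notes name Cell Ranger 2.0.2 and mm10 without their roles. The members, the lists and the Hhex set were chosen with earlier results of these data known.

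A barcode was kept with at least 500 genes detected and at most 10% of its UMIs mitochondrial. No barcode was removed as a doublet. The lowest totals were 2478 and 1892 UMIs, and library totals were 32519922 and 28777462 UMIs. UMIs were summed over cells and scaled to CPM, and log2 ratios were taken after adding 1 CPM. A gene was measured with at least 50 UMIs in the 2 sets compared, and a difference was called at 1.5-fold. Shares were taken after thinning cells to 3000 UMIs (seed 1). Intervals are exact 95%. No p-value is possible with 1 library per group, and cells are not replicates. PCR and capture error are not in the intervals.

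The text names all 8 members, up to 4 measured genes of each list with the largest absolute log2 ratio between the libraries, up to 3 genes with the highest correlation with a member where it was at least 0.3 (among genes with a UMI in at least 5% of cells), and Hhex, its set, Dll3, Sirpa and Qpctl. Marker genes named beside them follow from their lists. A few items that this rule or the labels name are not reported here. Barcodes were marked as another cell type with at least 3 markers of a T and NK, B, myeloid, endothelial or fibroblast cell. Each marker counted was found in under 2% of barcodes.

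Alternatives covered scaling, pseudocount, fold, cell filters, depth, weighting of cells, the Hhex threshold and the UMI minimum for a list gene. List counts under other scalings and thinned mitotic shares were chosen after seeing the data. Coordinates are from GENCODE M21 (GRCm38) and promoters from RefSeq. Tools were Python 3.11.15, numpy 2.4.6, scipy 1.17.1, pandas 2.3.3 and matplotlib 3.10.9, with edgeR 4.0.16 and DESeq2 1.42.0 in R 4.3.3 for scaling factors only. Each step across many genes was tested on simulated data.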

Additional observations from a re-analysis of the deposited data

Results flagged for a closer look

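Epcam differed in opposite directions between Hhex-positive and other cells of the 2 libraries. The log2 ratio of Hhex-positive over other cells was 0.63 in cisplatin and -0.18 in vehicle. The difference between the libraries was not tested, since each is 1 library, and the vehicle value rests on 52 Hhex-positive cells.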

How the results depend on the processing

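No paired analysis was possible because each group had 1 library. The count of higher members was 2 between libraries, with and without Hhex-positive cells, under each alternative run. The count higher in cisplatin Hhex-positive cells, 3, ranged from 2 with a fold of 2 to 4 with a lower fold limit, with Hhex-positive taken from 2 UMIs and among cells without mitotic UMIs. The count lower in cisplatin, 1 (Cdh1), was 0 with a fold of 2, with TMM factors and with median-of-ratios factors. Among cells without a Hhex UMI it was 0, and 1 with a lower fold limit, after thinning to 3000 UMIs and among cells without mitotic UMIs, the last chosen after seeing the data. The count lower in Hhex-positive cells, 1, was 2 under those same 3 alternatives. Of 94 member counts 85 were within 1.5 times of the main count and 9 moved. Of 328 log2 ratios of members 108 moved beyond their counting interval, and no ratio of a called member changed sign. Shares of cells depended most on depth: of 32 shares taken without thinning or after thinning to 2000 UMIs, 30 moved beyond their interval. Of 24 list counts under another UMI minimum 4 moved. The log2 ratios of Ceacam10 lay between 5.16 and 6.32 and those of Thy1 between 3.10 and 4.73 over all cells. Depth limits Cd44, and the 20 Thy1 and 32 Cdh1 UMIs of the 17 vehicle cells richest in Hhex. The treatment, the animals and the library cannot be told apart.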
